A study of Rattus norvegicus with 16 samples.

Results

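The genes described here are 8: the chains of the fibrous collagens Col1a1, Col1a2, Col3a1, Col5a1, Col5a2, Col12a1 and Col14a1, and Pcolce, which helps to trim procollagen. They were chosen by name, and all 8 were listed in each of the 16 libraries, among 13596 genes listed in all 4 groups of libraries. Single-cell RNA was measured in lumbar intervertebral discs (IVD) of 8 male Sprague-Dawley rats, aged 8 weeks at surgery. In each rat the discs L4–5 and L5–6 were stabbed once with a 27G needle (lumbar disc puncture, LDP), and the discs L2–3 and L3–4 of the same rat, left unpunctured, served as controls (CON). Rats 1 to 4 were taken 2 weeks post-surgery and rats 5 to 8 were taken 8 weeks post-surgery, which gave 4 libraries per group. The discs of one kind from one rat were pooled into 1 library, so a library holds both levels. CON and LDP libraries of the same number in their titles were taken to share an animal.

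Type I collagen, built from Col1a1 and Col1a2 chains, is the bulk fibre of the outer annulus fibrosus, tendon and bone. Type III (Col3a1) co-assembles with it, type V (Col5a1, Col5a2) starts fibrils and limits their width, and types XII and XIV (Col12a1, Col14a1) sit on the fibril surface. Procollagen is hydroxylated and folded in the endoplasmic reticulum. It is then freed of its end propeptides by Bmp1 and Adamts family proteases, with Pcolce enhancing the removal of the C-propeptide, and cross-linked by the lysyl oxidases. In the disc, the gelatinous nucleus pulposus (NP) and the inner annulus fibrosus (IAF) are rich in type II collagen and aggrecan, and the outer annulus fibrosus (OAF) in type I.

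Promoter sequences from RefSeq (rat build GRCr8) were matched for 4 of the 8 genes, and are shown for 2. The RNA of Col1a2 differed widely between disc regions, and that of Col5a2 much less. Of Col1a2 a stretch of 86 bases at chr4:33518307-33518392, plus strand, is given. The table counts from the start codon of this gene, so the stretch was ended at TATAAA. It held CCAAT on the opposite strand (printed as ATTGG) 221 bases before that codon, and TATAAA 170 bases before it, both in capitals. Of all 33469 promoters in the table, 12.4% held CCAAT on either strand in the same stretch. For TATAAA the share was 2.5%, but its match in Col1a2 was fixed by where the stretch was ended. Other promoters need not count from a start codon, so the same stretch can lie elsewhere in them.
Col1a2: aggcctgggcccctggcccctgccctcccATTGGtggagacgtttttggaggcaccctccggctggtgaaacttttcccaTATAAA
Of Col5a2 the 250 bases before the start at chr9:55090152-55090401, minus strand, held TTTAAA (in capitals, a motif chosen after the sequence was seen) 30 bases before the start, as 12.3% of all promoters did within the same stretch. It held no CCAAT and no GGGCGG on either strand, which 34.0% and 30.5% of promoters held, and no TATAAA, which 8.1% held.
Col5a2: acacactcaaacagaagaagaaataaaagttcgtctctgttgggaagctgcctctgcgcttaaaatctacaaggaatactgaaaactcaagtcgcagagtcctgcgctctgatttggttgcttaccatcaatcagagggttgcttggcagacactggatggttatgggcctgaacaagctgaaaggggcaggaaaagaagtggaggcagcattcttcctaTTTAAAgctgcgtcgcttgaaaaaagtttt

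The libraries held 2221 to 15918 cells, 149272 in all, with a median of 3861 to 8092 unique molecular identifiers (UMIs, each standing for 1 captured RNA molecule) per cell. The cells the study classed as IVD cells made up 59.1% to 96.7% of a library and 127077 cells in total. The other cells were classed as endothelial, myeloid or lymphoid, or were left unnamed. In IVD cells the summed level of NP and chondrocyte-like markers (Acan, Col2a1, Cd24, S100b, Comp and Sox9, all 6 listed) was 8452 to 27329 CPM (counts scaled to the same total in every cell). LDP rat 4 at 2 weeks and LDP rat 5 at 8 weeks stood apart from their groups, with a median distance of 0.427 and 0.358 on the log2 scale over genes, against 0.119 to 0.222 in the other 14 libraries. Any 2 libraries shared at most 75 cell barcodes.

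All levels below are means over the cells of a library, in CPM. As the assay tags the 3′ end of each molecule, a level does not scale with gene length, but it does depend on how well that end is annotated, so levels are compared within a gene rather than between genes. In a library, a lower level can come from fewer cells that express a gene or from less RNA in each of them.

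Most RNA of the 8 genes lay in IVD cells, and within these, at 2 weeks, the OAF cells carried the larger part of Col1a1 and Col14a1. IVD cells held at least 91.5% of the UMIs of each gene in every library of the other 3 groups, but less in LDP discs at 8 weeks, where their share was 73.9% to 99.4% for Col14a1, 75.4% to 98.5% for Col12a1 and 90.0% to 99.7% for Col1a1. The lowest of these shares were those of rat 6, in which unnamed cells were 28.3% of all cells and held 25.7% of the Col14a1 and 23.7% of the Col12a1 UMIs. At 2 weeks in CON discs, IVD cells held 98.6% to 99.5% of all Col1a1 UMIs, and OAF cells, which were 9.28% to 14.6% of the IVD cells, held 53.5% to 76.0% of the Col1a1 UMIs of IVD cells. OAF cells also held 62.7% to 89.3% of the Col14a1 UMIs. For the type V chains it was otherwise, with 10.9% to 29.4% of Col5a1 and 8.63% to 24.3% of Col5a2 UMIs in OAF cells. The study used Col1a1 in naming NP and IAF cells. Which genes entered the clustering is not given in the sources used here, and the 8 genes may be among them, so the levels in the regions are a description and were not tested.

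Col1a1 in OAF cells of CON discs was 56540, 68375, 58689 and 38467 CPM in rats 1 to 4. In IAF cells it was 4734, 6198, 8469 and 3203 CPM, and in NP cells 4386, 2630, 4715 and 2789 CPM. The OAF level was above every IAF and NP level, while the IAF and NP levels overlapped. Within a CON library, OAF exceeded NP cells 12.4- to 26.0-fold for Col1a1, 25.6- to 71.4-fold for Col14a1, 8.99- to 13.8-fold for Col12a1 and 8.25- to 14.2-fold for Col1a2. Col3a1, at 5.97- to 12.9-fold, and Pcolce, at 6.90- to 8.61-fold, had a shallower slope. Col5a1 and Col5a2 differed least, with an OAF to NP ratio of 1.26 to 3.15 and 1.06 to 2.35, above 1 in every CON library. By the median over libraries the slope was steepest for Col14a1 (31.1) and flattest for Col5a2 (1.19) in CON discs, and likewise in LDP discs (28.8 and 1.22).

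**Figure D1:**
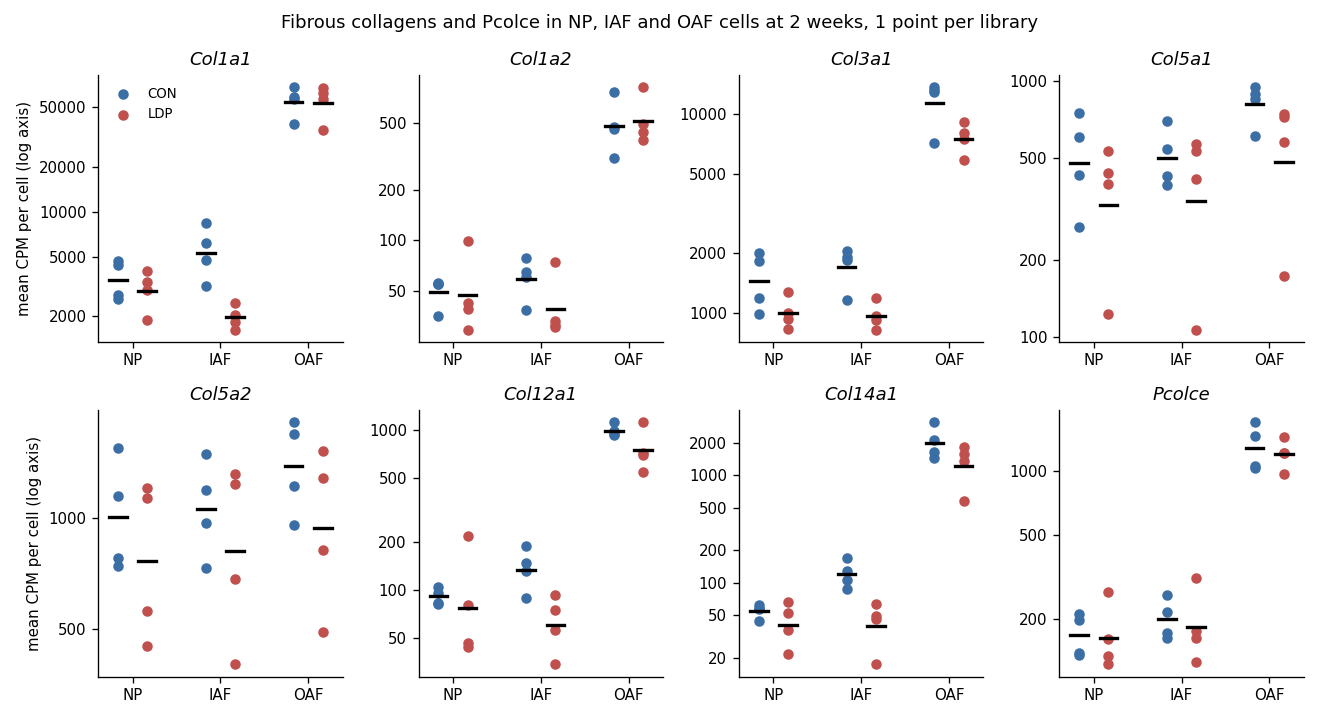
Mean CPM per cell (log axis) of the 8 genes in NP, IAF and OAF cells at 2 weeks, with 1 point per library, CON in blue, LDP in red, and a bar at the mean on the log scale. OAF points lie above NP and IAF points for Col1a1, Col1a2, Col3a1, Col12a1, Col14a1 and Pcolce, whereas the 3 regions overlap for Col5a1 and Col5a2. In IAF cells the LDP points of Col1a1 and Col14a1 all lie below the CON points.

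Levels in the other classes were mostly below those of IVD cells, by an amount that differed between genes and groups. At 2 weeks the Col1a1 level of lymphoid cells was 7.09% of the IVD level in the 1 CON library with enough lymphoid cells and 8.59% to 15.0% in 3 LDP libraries. Col14a1 in lymphoid cells was 3.60% of the IVD level in CON and 0 to 5.28% in LDP discs. Unnamed cells of CON discs at 2 weeks had Col12a1 at 128% to 203% and Col3a1 at 50.5% to 117% of the IVD level, but Col1a1 at only 10.1% to 23.2%. The Col1a1 to Col3a1 ratio in these cells was 0.686 to 1.29, below the 3.39 to 4.41 of IVD cells in the same libraries. In LDP discs at 8 weeks, unnamed cells had Col12a1 at 5.18% to 195% and Col14a1 at 6.87% to 135% of the IVD level. Lymphoid cells had Col1a2 at 5.55% to 47.0% (median 14.5%) of the IVD level in 3 CON libraries at 8 weeks. In 3 LDP libraries at 2 weeks it was 14.8% to 47.7% (median 20.7%). The smallest of these libraries held only 33 and 25 lymphoid cells, so the highest values may rest on few UMIs. Myeloid cells of CON discs at 2 weeks had Col14a1 at 1.20% to 35.7% (median 14.4%), with as few as 25 cells in a library. Endothelial cells of LDP discs at 8 weeks had Col12a1 at 49.0% to 162% of the IVD level. The unnamed cells of CON discs at 2 weeks also carried pericyte and smooth muscle markers (4 of 5 listed), which summed to 2719 to 6029 CPM there and to 24.6 to 133 CPM in IVD cells.

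The first comparison asked whether the 8 genes differed between LDP and CON discs in IVD cells at 2 weeks. In every rat the punctured discs lay at lower spinal levels than the controls. Puncture and disc level therefore cannot be told apart in any comparison of LDP with CON, and the rat block does not separate them. Each fitted change below is LDP minus CON on the log2(mean CPM + 1) scale, with its standard error (SE), from limma with the rat as a block and Benjamini-Hochberg adjustment over all genes tested. At 2 weeks, 0 of the 8 genes passed an adjusted p of 0.05, in a comparison that called 0.179% of 11150 genes. 1 gene, Col14a1, had an unadjusted p under 0.05, as did 11.7% of all genes. Both edgeR and DESeq2 called 0 of 8, where DESeq2 called 2.53% of all genes. For edgeR no share over all genes is given, here or below, so its counts are not read as a result about the 8 genes.

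Col14a1, a fibril surface collagen, was at 311, 473, 310 and 209 CPM in CON and 125, 356, 189 and 103 CPM in LDP libraries of rats 1 to 4. It was lower in LDP in 4 of 4 rats, as 14.1% of all genes were, although the groups overlapped, and the fitted change was -0.86 ± 0.31 (SE), adjusted p = 0.348. Without rat 4 it was -0.81. The other 7 genes were not lower in every rat, and for 0 of 8 genes did all LDP values lie below all CON values, against 4.42% of all genes.

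Col1a1 was at 12155, 12017, 11734 and 6542 CPM in CON and at 5651, 11666, 8907 and 7277 CPM in LDP discs. Rat 4 had the lowest CON value and was the one rat with the higher value in LDP, and the fitted change was -0.35 ± 0.30 (95% confidence interval -1.02 to 0.32). The log2 differences were -1.10, -0.04, -0.40 and 0.15 in rats 1 to 4, so rat 1 weighed most on it. Col1a2, its partner chain, was at 119, 155, 98.0 and 64.1 CPM in CON and at 52.8, 104, 77.2 and 198 CPM in LDP discs. Here the LDP library of rat 4 was the highest of all 8, so that the ratio of Col1a1 to Col1a2 was 36.8 in it and 107 to 115 in the other 3 LDP libraries. The same library was lowest for Col5a1, at 124 CPM against 461 to 554 CPM in the other LDP libraries. The medians over the 8 genes and over all genes tested were -0.46 and -0.08, and all 8 fitted changes were below 0, as were 64.0% of all genes.

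**Figure D2:**
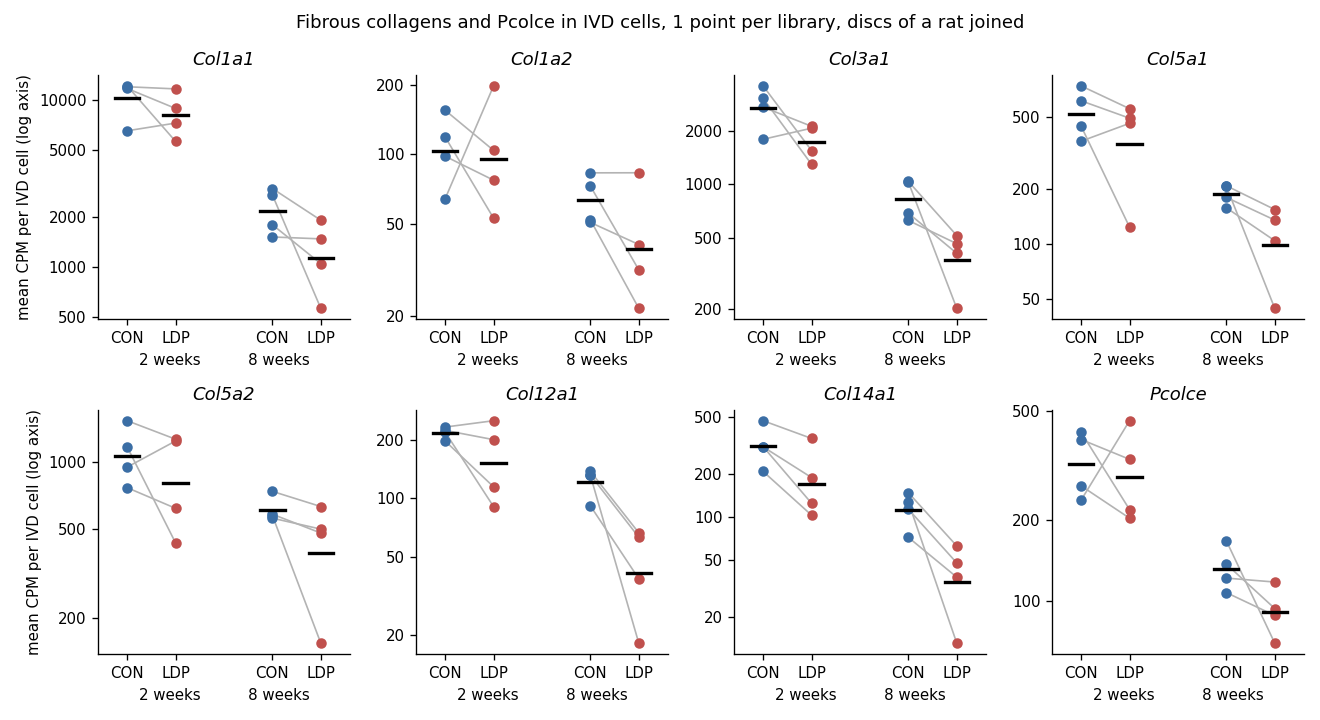
Mean CPM per IVD cell (log axis) of the 8 genes in CON (blue) and LDP (red) discs at 2 and 8 weeks, with 1 point per library, grey lines joining the libraries of a rat, and a bar at the mean on the log scale. At 8 weeks the 4 LDP points lie below the 4 CON points for Col3a1, Col5a1, Col12a1 and Col14a1, and at 2 weeks the groups overlap for all 8 genes.

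At 8 weeks the surface collagens had the lowest fitted values among the 8 genes, but again 0 of 8 passed the test, in a comparison that called 0.269% of 11150 genes. At an unadjusted p under 0.05 there were 5 of 8 and 20.8% of all genes, and edgeR called 0 of 8. Col14a1 was at 127, 113, 71.9 and 148 CPM in CON and 13.0, 47.6, 37.8 and 62.6 CPM in LDP libraries of rats 5 to 8. The highest LDP value was below the lowest CON value. The ratio of the CON to the LDP mean was 2.86, and the fitted change -1.64 ± 0.31 with adjusted p = 0.0641. Col12a1, which like Col14a1 sits on the fibril surface, was at 131, 138, 132 and 91.7 CPM in CON and 18.1, 66.7, 63.3 and 38.8 CPM in LDP discs. These groups did not overlap either, with a ratio of means of 2.64 and a fitted change of -1.52 ± 0.30 (adjusted p = 0.0641).

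LDP rat 5 had the lowest LDP value of all 8 genes, and it weighed on the size of each change. Without rat 5 the fitted change was -1.12 for Col14a1 (adjusted p = 0.0887) and -1.10 for Col12a1 (adjusted p = 0.220). For the other genes it was then -0.73 for Col3a1, -0.50 for Col1a2, -0.48 for Col1a1 and Col5a1, -0.29 for Pcolce and -0.22 for Col5a2. With all rats of 8 weeks but without rat 4, a rat of 2 weeks whose libraries enter the shared estimate of the spread, Col3a1, Col12a1 and Col14a1 fell with adjusted p = 0.0485, 0.0360 and 0.0360. That comparison called 4.19% of 11134 genes as lower. DESeq2 on the summed counts also called Col12a1 and Col14a1, with 2.55% of genes called as lower.

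Col3a1, the type III chain, was at 1030, 689, 627 and 1039 CPM in CON and 201, 409, 464 and 515 CPM in LDP libraries at 8 weeks. All LDP values lay below all CON values, with a fitted change of -1.14 ± 0.31 (adjusted p = 0.108). Col5a1 was at 208, 158, 180 and 209 CPM in CON and 44.3, 104, 135 and 155 CPM in LDP discs, and also did not overlap (-0.91 ± 0.35, adjusted p = 0.193). Its partner chain Col5a2 was at 577, 561, 585 and 740 CPM in CON and at 154, 501, 481 and 633 CPM in LDP discs, where the groups overlapped (-0.64 ± 0.31).

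For the type I chains the groups overlapped at 8 weeks. Col1a1 was at 2698, 2948, 1511 and 1789 CPM in CON and at 564, 1903, 1471 and 1045 CPM in LDP discs. The LDP value was lower in 4 of 4 rats, by little in rat 7 and by most in rat 5, and the fitted change was -0.93 ± 0.30 (adjusted p = 0.151). Col1a2 was at 51.9, 83.1, 72.8 and 50.6 CPM in CON and at 21.5, 83.1, 31.5 and 40.6 CPM in LDP discs, with a fitted change of -0.68 ± 0.37. Pcolce was at 167, 108, 122 and 137 CPM in CON and 70.3, 88.8, 118 and 94.2 CPM in LDP discs (-0.53 ± 0.27), and was lower in LDP in 4 of 4 rats with overlap between the groups.

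At 8 weeks 7 of the 8 genes were lower in LDP in 4 of 4 rats, a pattern that 26.3% of all genes tested had, and 4 of 8 had every LDP value below every CON value, against 11.4% of all genes. The median fitted change was -0.92 over the 8 genes and -0.16 over all genes tested, and 71.3% of all genes were below 0. The LDP minus CON changes at 8 and 2 weeks were not shown to differ. In the test of the difference, 0 of 8 genes and 0.0% of all genes passed, and 1 of 8 had an unadjusted p under 0.05. DESeq2 called 0 of the 8 and 0.108% of all genes in that test, and edgeR 0 of the 8. Over all genes 186 had an unadjusted p under 0.05. In all cells of a library, of whatever class, limma likewise called 0 of 8 genes at 2 weeks and 0 of 8 at 8 weeks, with 0.0% and 0.00848% of 11787 genes called. DESeq2 called 2 of 8 at 8 weeks, with 0.942% of genes called as lower, and at an unadjusted p under 0.05 limma had 2 of 8 at 2 weeks and 6 of 8 at 8 weeks, against 9.21% and 9.01% of all genes.

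The summed level of outer annulus markers was lower in LDP discs as well. Igfbp5, Igfbp6, Lum, Myoc and Fibin, the markers by which OAF cells were identified at 2 weeks, summed in IVD cells to 877 to 1570 CPM in CON and 387 to 848 CPM in LDP discs at 8 weeks. At 2 weeks they summed to 1647 to 2862 CPM in CON and 893 to 1640 CPM in LDP discs. Neither pair of ranges overlapped, and all 5 markers were above 0 in every library. At 2 weeks each single marker overlapped between the groups, and Igfbp5, the largest part of the sum, was at 634 to 1698 CPM in CON and 411 to 667 CPM in LDP discs. At 8 weeks Igfbp6, Lum and Myoc did not overlap, while Igfbp5 and Fibin did. Tendon and ligament markers (4 of 4 listed) summed to 194 to 316 CPM in CON and 127 to 152 CPM in LDP discs at 8 weeks, but overlapped at 2 weeks (282 to 673 and 261 to 662 CPM). Osteoblast and osteocyte markers (5 of 6 listed) overlapped widely at 8 weeks, at 393 to 1007 and 167 to 1402 CPM. At 2 weeks endothelial markers (5 of 5 listed) had a median sum of 35.3 CPM in CON and 20.1 CPM in LDP discs, and Schwann cell markers (3 of 4 listed) of 13.6 and 38.8 CPM, neither with overlap between the groups. The part of these cells in the levels of the 8 genes was not tested.

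**Figure D3:**
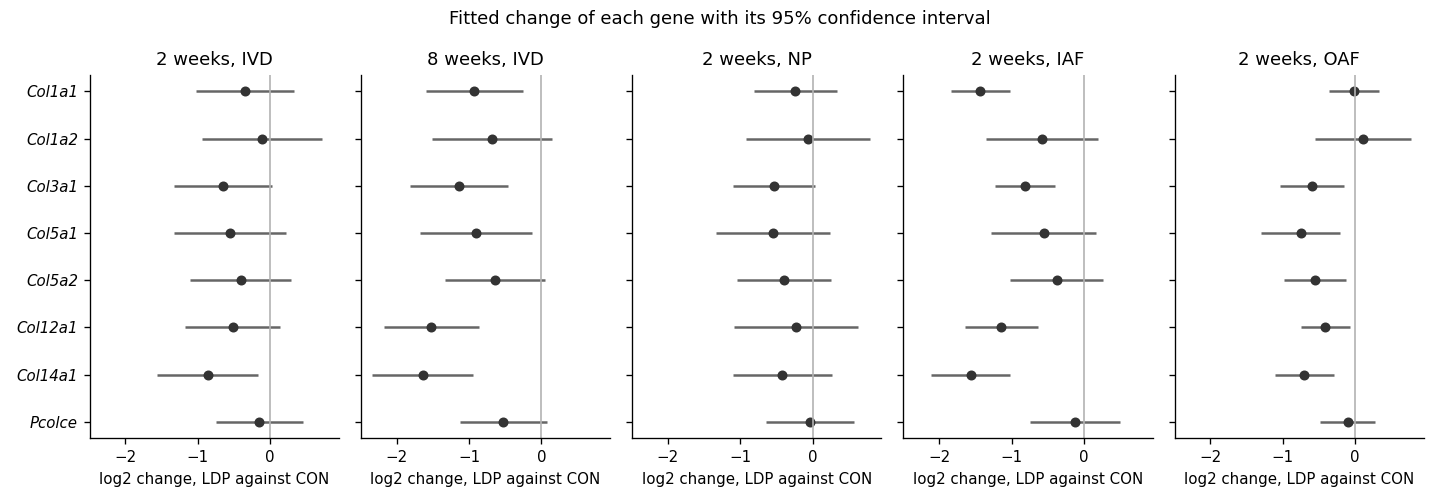
Fitted LDP minus CON change of the 8 genes on the log2(mean CPM + 1) scale in IVD cells at both times and in NP, IAF and OAF cells at 2 weeks, as points with 95% confidence intervals from limma. The intervals carry no adjustment over genes. Those that lie below 0 belong to Col14a1 in IVD cells at 2 weeks, to Col1a1, Col3a1, Col5a1, Col12a1 and Col14a1 in IVD cells at 8 weeks, to Col1a1, Col3a1, Col12a1 and Col14a1 in IAF cells, and to Col3a1, Col5a1, Col5a2, Col12a1 and Col14a1 in OAF cells.

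The regions of the disc could be compared between CON and LDP at 2 weeks only, as the deposited cells of 8 weeks carry no region labels. OAF cells were 14.6%, 13.4%, 9.28% and 10.1% of IVD cells in CON and 6.29%, 16.4%, 9.27% and 15.0% in LDP discs. Mean shares of 11.8% ± 2.52 and 11.7% ± 4.76 (SD, n = 4 each) differed by less than the spread (two-sided exact permutation test over 70 splits, p = 0.971). CON and LDP cells were clustered apart by the study, so the borders between regions may lie at different places in the 2 kinds of disc. Marker lists differed between the OAF cells of CON and LDP discs, as given below. The 2 OAF classes thus did not hold the same mix of cells, and the test of their shares compares the classes as named.

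In IAF cells, Col1a1 was at 4734, 6198, 8469 and 3203 CPM in CON and at 1828, 2475, 2035 and 1634 CPM in LDP libraries. Every LDP value was below every CON value, and the fitted change was -1.43 ± 0.18 with adjusted p = 0.0553. Within a library, the IAF to NP ratio of Col1a1 was 1.08 to 2.36 in CON but 0.506 to 0.964 in LDP discs. The study named IAF cells of CON discs partly by modestly higher Col1a1 than NP cells. LDP discs did not keep that order. Col14a1 in IAF cells was at 107, 128, 169 and 87.5 CPM in CON and at 49.2, 63.5, 45.4 and 17.3 CPM in LDP discs, also without overlap (-1.56 ± 0.24, adjusted p = 0.0805). Col12a1, at 88.7, 146, 187 and 131 CPM in CON and 55.5, 74.3, 91.9 and 33.9 CPM in LDP discs, overlapped in 1 library of each kind (-1.14 ± 0.22, adjusted p = 0.126). Col3a1 in IAF cells was lower in LDP in 4 of 4 rats, a pattern of 4 of 8 genes and 19.4% of all genes (-0.82 ± 0.18, adjusted p = 0.169). By contrast Col1a2, the type V chains and Pcolce had intervals that included 0. Thus 0 of 8 genes passed in IAF cells, where limma called 0.0% of 10969 genes (1477 at an unadjusted p under 0.05, 4 of the 8 among them), and 2 of 8 had all LDP values below all CON values, against 7.22% of all genes.

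These values rested on the method and on rat 4. Without rat 4, Col1a1, Col1a2, Col12a1 and Col14a1 fell in IAF cells (changes of -1.58, -1.07, -0.88 and -1.32, adjusted p = 0.0375, 0.0375, 0.0458 and 0.0485), and 0.227% of all genes were called as lower. DESeq2 called Col1a1, Col12a1 and Col14a1, and 1.28% of all genes, as lower. edgeR with library scaling gave Col1a1 a change of -1.03 with adjusted p = 0.177. With NP and IAF cells pooled, a comparison added after the data were seen, the change was -0.77 for Col1a1 (adjusted p = 0.355) and -1.01 for Col14a1 (adjusted p = 0.357), and 0 of 8 genes and 0.0% of 10903 genes passed.

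In OAF cells Col1a1 was at 62022, 56502, 67556 and 35356 CPM in LDP discs, which overlapped the CON values although rat 4 was below the lowest of them, and the fitted change was -0.02 (95% confidence interval -0.36 to 0.33). Col3a1 in OAF cells was at 13139, 12834, 13661 and 7163 CPM in CON and at 9110, 8061, 5844 and 7467 CPM in LDP discs. Rat 4 alone had the higher value in LDP, and the change was -0.59 ± 0.20 (adjusted p = 0.308). Col14a1 was at 1629, 3151, 2119 and 1456 CPM in CON and at 1366, 1840, 1565 and 576 CPM in LDP discs (-0.70 ± 0.18, adjusted p = 0.144), or -0.49 without rat 4. Col14a1, Col5a1 and Col5a2 were lower in LDP in 4 of 4 rats in OAF cells, a pattern of 13.8% of all genes. In all, 0 of 8 genes passed in OAF cells, where limma called 1.39% of 11694 genes. There 5 of 8 had an unadjusted p under 0.05, against 11.2% of all genes. DESeq2 and edgeR called 0 of 8 in OAF cells, for which no share over all genes is given here.

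In NP cells 0 of 8 genes passed, by limma, edgeR or DESeq2, and 0 of 8 had an unadjusted p under 0.05. No gene of the 8 was lower in every rat, against 10.3% of all genes. Col1a1 was at 1896, 3394, 4021 and 3015 CPM in LDP discs, which overlapped the CON values (-0.24 ± 0.24), and the change of Col14a1 was -0.42 ± 0.29, or -0.11 without rat 4 and -0.75 without rat 2. limma called 0.0% of 10817 genes in NP cells (1078 at an unadjusted p under 0.05), and DESeq2 called 1.85%.

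The LDP minus CON change in one region, called the effect here, was then set against that in another within each rat. This comparison was added after the data were seen. As given above, cells named IAF were above NP cells for Col1a1 in CON but below them in LDP discs. The differences between regions may therefore set unlike cells against each other, which was not tested. Between IAF and OAF cells the effect differed for Col1a1 (IAF minus OAF -1.42 ± 0.22, adjusted p = 0.00555), Col1a2 (-0.69 ± 0.13, adjusted p = 0.0182), Col12a1 (-0.73 ± 0.15, adjusted p = 0.0265) and Col14a1 (-0.86 ± 0.17, adjusted p = 0.0181). Each was below 0 in 4 of 4 rats, and limma called 6.27% of 10604 genes. Col1a1 passed whichever rat was left out, but Col1a2 was lost without rat 1 or 3, Col12a1 without rat 2, 3 or 4, and Col14a1 without rat 1, 3 or 4 or with a pseudocount of 10. Against NP cells, the IAF effect differed for Col14a1 (-1.14 ± 0.17, adjusted p = 0.0275), where 0.159% of genes were called, and it was lost without rat 2 or with a pseudocount of 10. Without rat 1, Col1a1 and Col1a2 passed there too. No difference between NP and OAF cells passed for the 8 genes, with 4.65% of genes called.

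The makeup of the regions differed between CON and LDP discs beside these results. The OAF marker list summed in IAF cells to 795 to 1283 CPM in CON and 315 to 511 CPM in LDP discs, and tendon and ligament markers to 167 to 309 and 111 to 160 CPM. In NP cells the OAF list summed to 418 to 739 CPM in CON and 350 to 467 CPM in LDP discs. Pericyte and smooth muscle markers summed in OAF cells to 10.2 to 35.4 CPM in CON and 482 to 779 CPM in LDP discs, and Schwann cell markers to 2.28 to 5.96 and 89.6 to 623 CPM. In unnamed cells both lists went the other way at 2 weeks. Pericyte and smooth muscle markers summed there to 2719 to 6029 CPM in CON and 35.4 to 702 CPM in LDP discs, and Schwann cell markers to 344 to 1616 and 7.69 to 213 CPM. Loose connective tissue fibroblast markers (4 of 5 listed) summed in OAF cells to 877 to 1139 CPM in CON and 547 to 861 CPM in LDP discs. In IAF cells endothelial markers summed to 21.6 to 233 CPM in CON and 12.5 to 26.6 CPM in LDP discs, and pericyte markers to 23.4 to 223 and 15.8 to 38.5 CPM. Median UMIs of IAF cells were 2442 to 3789 in CON and 4100 to 6403 in LDP libraries. As for RNA outside cells, lymphoid cells of LDP rats 2, 3 and 4 had Col1a1 at 1473, 1333 and 625 CPM, with median UMIs of 1319 to 1860. The part of other cells, cluster borders, depth or free RNA in the IAF and OAF values was not tested.

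The RNA was concentrated in few cells. Cells with Col1a1 at 10000 CPM or more, a threshold chosen after the data were seen, made up 14.5% to 25.2% of IVD cells in CON and 8.67% to 17.7% in LDP discs at 2 weeks. At 8 weeks they made up 7.69%, 7.00%, 4.69% and 6.48% in CON and 1.64%, 4.49%, 3.83% and 3.43% in LDP libraries of rats 5 to 8. These cells held 79.2% to 96.0% of the summed Col1a1 CPM of a library. The ranges did not overlap at 8 weeks, and the means were 6.47% ± 1.28 and 3.35% ± 1.22 (SD, n = 4 each, two-sided exact permutation test p = 0.0286, the smallest that 4 against 4 allows). With sign flips within rats the exact p was 0.125, again the smallest possible. No such share was computed for other genes, so no rate stands beside this result. By mean level Col1a1 overlapped at 8 weeks, and 11.4% of all genes had every LDP value below every CON value. At 2 weeks the means were 19.5% ± 4.68 and 13.3% ± 3.80 (exact permutation p = 0.114).

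Within the cells above the threshold at 8 weeks, mean Col1a1 was 21849 to 36589 CPM in CON and 25708 to 38960 CPM in LDP discs, so the levels within them overlapped. These cells were picked by Col1a1 itself, and their mean cannot lie below the threshold. The overlap therefore does not show that the level per expressing cell was unchanged. In the cells below the threshold it was 197 to 417 CPM in CON and 74.9 to 168 CPM in LDP discs, without overlap. Lymphoid cells, which should lack Col1a1, were at 128, 408 and 136 CPM in CON rats 5 to 7, at 0 in the 7 such cells of CON rat 8, and at 4.38, 25.6, 151 and 171 CPM in LDP rats 5 to 8. Within a library, the lymphoid level was near that of the IVD cells below the threshold in CON rat 6 (417 CPM in the latter) and LDP rats 7 and 8 (168 CPM in each). It was lower in the other libraries, where such IVD cells were at 402, 197 and 398 CPM in CON rats 5, 7 and 8. In LDP rats 5 and 6 they were at 74.9 and 160 CPM. The level below the threshold is given as a description, and the part of free RNA in it was not tested. Cells between 5000 and 20000 CPM, near the threshold, were 1.33% to 7.02% of IVD cells at 8 weeks. By region at 2 weeks, 80.8% to 91.2% of OAF cells in CON and 62.8% to 79.9% in LDP discs were above the threshold. In IAF cells the shares were 6.10% to 24.4% and 4.43% to 5.52%.

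**Figure D4:**
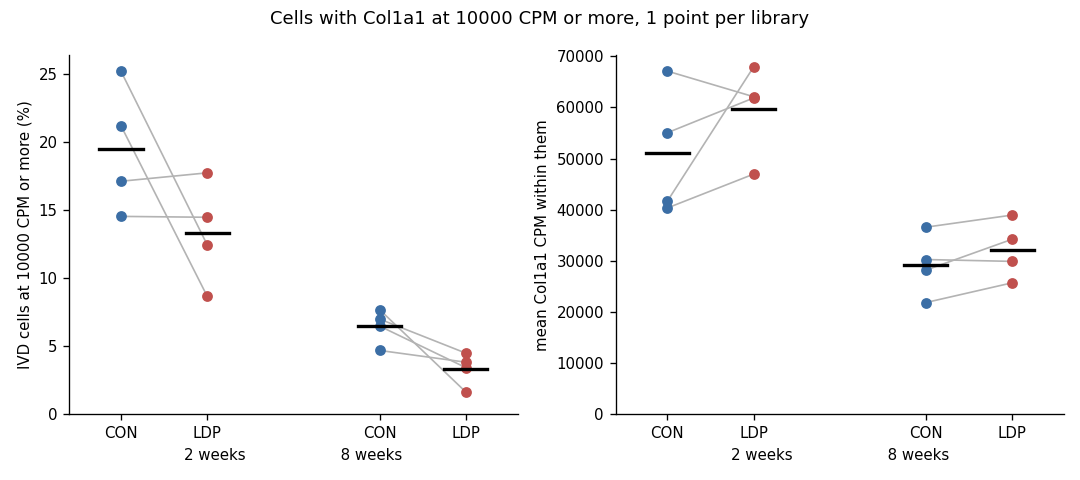
Left, the percentage of IVD cells with Col1a1 at 10000 CPM or more, and right, the mean Col1a1 CPM within those cells, with 1 point per library, grey lines joining libraries of a rat, and a bar at the mean. At 8 weeks the LDP shares (1.64% to 4.49%) lie below the CON shares (4.69% to 7.69%). The levels within those cells, which the threshold bounds from below, overlap.

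The share of IVD cells with at least 1 UMI of a gene was compared after every cell had been thinned to 1000 UMIs, which left out 883 shallower IVD cells. At 8 weeks Col12a1 was found in 7.33% ± 0.84 of CON and 3.37% ± 1.33 of LDP cells and Col14a1 in 5.63% ± 1.49 and 2.62% ± 1.16 (SD, n = 4 each). Neither pair overlapped, and each had an exact permutation p of 0.0286, the smallest possible, and 0.183 after Benjamini-Hochberg adjustment over the 16 tests. Shares of cells were not computed over all genes, thinned or not, so no rate stands beside these results. By mean level, 11.4% of all genes had every LDP value below every CON value at 8 weeks. In lymphoid cells, which should lack these collagens, the share at 1000 UMIs was 0 to 0.706% for Col12a1 and 0 to 0.579% for Col14a1 at 8 weeks, below every IVD library. With all UMIs the groups overlapped for both genes, with Col14a1 in 7.95% to 14.7% of CON and 4.34% to 11.2% of LDP cells, and the lowest exact permutation p at 8 weeks was 0.0571. LDP libraries tended to be deeper there, with medians of 6427 to 9889 UMIs per IVD cell against 5162 to 7667 in CON, although these ranges overlapped. At 1000 UMIs the other 6 genes overlapped at 8 weeks, and at 2 weeks the lowest exact permutation p among the 8 genes was 0.0571. With all UMIs at 2 weeks, Col3a1 was found in 87.8% ± 2.52 of CON and 80.2% ± 3.73 of LDP cells (SD, n = 4 each), without overlap and lower in 4 of 4 rats (exact permutation p = 0.0286, 0.305 after adjustment over the 16 tests).

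For Col1a1 a share of cells with a UMI could not be read as expression. At 2 weeks in LDP discs it was 24.3% to 49.7% of IVD cells and 38.6% to 73.2% of lymphoid cells at 1000 UMIs. The unthinned median depths were 4993 to 7924 and 1319 to 1860 UMIs. LDP rat 1 had 0 lymphoid cells, and without it the mean IVD share was 41.2% ± 7.56 (SD, n = 3). The level per cell went the other way, as given above for lymphoid cells. For Col3a1 the lymphoid share was 8.98% to 10.5% in the 3 LDP libraries with lymphoid cells, against 43.7% to 51.0% of IVD cells in all 4 LDP libraries.

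The levels at 8 and 2 weeks came from different rats, so time, animal and processing cannot be told apart in what follows, and both time comparisons were fitted without the rat. In CON discs 5 of the 8 genes were lower at 8 weeks, in a comparison that called 4.67% of 11150 genes as lower. Col1a1 fell by 2.26 ± 0.34 on the log2 scale (4.74-fold between means, adjusted p = 0.0018), Col3a1 by 1.71 ± 0.28 (3.30-fold, adjusted p = 0.00238) and Pcolce by 1.27 ± 0.25 (2.46-fold, adjusted p = 0.00738). Col14a1 fell by 1.48 ± 0.43 and Col5a1 by 1.47 ± 0.42, with adjusted p = 0.0442 and 0.0425. Col1a2 (-0.71 ± 0.40), Col5a2 (-0.81 ± 0.39) and Col12a1 (-0.83 ± 0.35) did not pass. For 7 of the 8 genes, all but Col1a2, every CON library of 8 weeks was below every CON library of 2 weeks, as for 14.3% of all genes. The count of 5 was 3 when rat 1, 3, 6 or 7 was left out. Some marker lists, of disc cells and of other cells, were lower in IVD cells of CON discs at 8 weeks as well, without overlap. NP and chondrocyte-like markers summed to 18386 to 27329 CPM at 2 weeks and 8452 to 12353 CPM at 8 weeks, loose connective tissue fibroblast markers to 313 to 413 and 152 to 234 CPM, and the OAF list to the values given above. Endothelial markers summed to 28.7 to 141 CPM at 2 weeks and 15.1 to 18.5 CPM at 8 weeks in CON discs, but overlapped in LDP discs. The other 3 lists did not overlap between the times in LDP discs either. There tendon and ligament markers (261 to 662 and 127 to 152 CPM) and pericyte and smooth muscle markers (71.0 to 120 and 28.9 to 68.3 CPM) did not overlap, though both did in CON discs. Osteoblast and Schwann cell lists overlapped in both kinds of disc. The part of the cells behind these lists in the levels of the 8 genes was not tested.

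In LDP discs 7 of the 8 genes were lower at 8 weeks, in a comparison that called 9.88% of genes as lower. Col1a1 fell by 2.83 ± 0.34 (6.72-fold, adjusted p = 0.000163), Col14a1 by 2.26 ± 0.43, Col3a1 by 2.20 ± 0.28, Col12a1 by 1.84 ± 0.35, Col5a1 by 1.82 ± 0.42 and Pcolce by 1.64 ± 0.25. Col1a2 fell by 1.27 ± 0.40 (adjusted p = 0.0422), a call that was lost without rat 4 (adjusted p = 0.0660) and without rat 5 (adjusted p = 0.144). Col5a2, at -1.04 ± 0.39, did not pass (adjusted p = 0.0824). The groups did not overlap for 5 of 8 genes, against 9.50% of all genes. The ratio of Col1a1 to Col1a2 in IVD cells was 77.5 to 120 at 2 weeks and 20.8 to 51.9 at 8 weeks in CON discs, without overlap. In LDP discs it was 36.8 to 115 and 22.9 to 46.7.

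Partners of the same pathway also had lower levels at 8 weeks, and 0 genes of the lists passed as higher. Fitted values above 0 were few, and the highest was that of the receptor Ddr1 (0.33 ± 0.20 in CON and 0.36 ± 0.20 in LDP discs). In LDP discs Ddr2 (0.16 ± 0.22) and P4ha2 (0.04 ± 0.13) were above 0 as well, and in CON discs Col20a1 (0.05 ± 0.20). These were named for their direction. By limma 23 of 43 genes of the lists passed as lower in CON and 27 of 43 in LDP discs, beside the 4.67% and 9.88% of all genes. Of 16 genes tested for folding and hydroxylation in the endoplasmic reticulum, 9 passed as lower in CON and 10 in LDP discs, among them the prolyl 3-hydroxylase P3h1 (-1.10 ± 0.15 in LDP discs), the chaperone Fkbp10 (-0.82 ± 0.12 in CON discs) and the lysyl hydroxylase Plod1 (-0.61 ± 0.10 in CON discs). Of 4 genes tested for propeptide removal, 3 passed in CON and 4 in LDP discs. These included the N-propeptidase Adamts2 (-1.20 ± 0.22 in CON and -1.74 ± 0.22 in LDP discs) and the C-propeptidase Bmp1 (-0.93 ± 0.19 and -1.15 ± 0.19). Of the 5 cross-linking oxidases, Loxl1, Loxl2 and Loxl3 passed in both, with Loxl2 at -1.13 ± 0.15 in CON discs. Lox did not.

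The collagens of cartilage also had lower levels at 8 weeks, 4 of 6 in CON and 6 of 6 in LDP discs, with medians of -0.80 and -1.60. Col2a1, the main collagen of NP and IAF, was at 10427 ± 4422 CPM in CON at 2 weeks and 2398 ± 684 CPM at 8 weeks (SD, n = 4 each; -2.04 ± 0.45, adjusted p = 0.0112). Of 4 other fibrillar and surface collagens, Col5a3 and Col16a1 passed in both kinds of disc. Of 8 collagen receptors, Itga2 and Mrc2 did. In CON discs Col2a1, Col5a3 and Mrc2, and among the oxidases Loxl3, did not pass without some of the rats, rat 3 among them for each. The medians over all genes were -0.02 in CON and -0.09 in LDP discs.

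**Figure D5:**
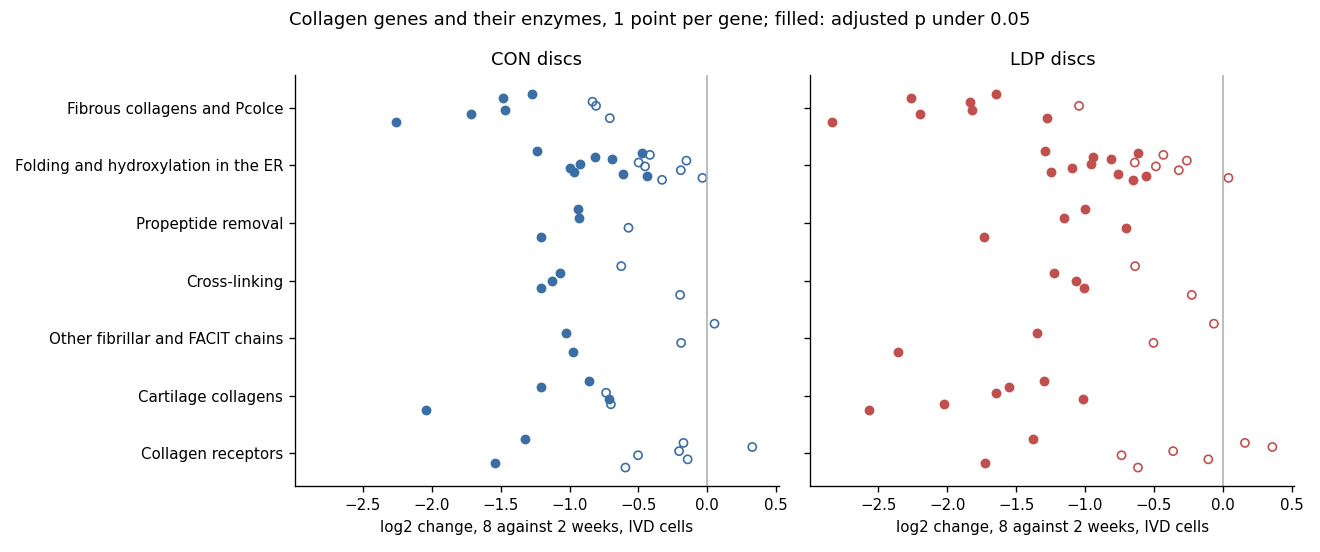
Fitted change at 8 against 2 weeks on the log2(mean CPM + 1) scale for the 8 genes and for the genes of the pathway lists in IVD cells of CON and LDP discs, 1 point per gene, with filled points for an adjusted p under 0.05. Every filled point lies below 0, and Col1a1 has the lowest value of the 8 genes in both kinds of disc.

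Between LDP and CON discs, 1 of 43 genes of these lists passed at 8 weeks and 0 of 43 at 2 weeks by limma, and likewise by edgeR. DESeq2 called 8 of 43 at 8 weeks, where it called 5.13% of all genes, and 5 of 43 at 2 weeks, where it called 2.53%. Col5a3, the third type V chain, was at 15.3 to 20.7 CPM in CON and 3.21 to 6.11 CPM in LDP libraries at 8 weeks. All LDP values were below all CON values, and it fell by 1.82 ± 0.26 (adjusted p = 0.0248). The call was lost without rat 5, 6, 7 or 8 (adjusted p = 0.0978 to 0.121) and with a pseudocount of 10 (adjusted p = 0.0984). Adamts2 was at 12.4 to 17.3 CPM in CON and 3.68 to 6.98 CPM in LDP discs, without overlap, at -1.28 ± 0.23 (adjusted p = 0.0583). It passed with a pseudocount of 0.1 (adjusted p = 0.0387), without the block (adjusted p = 0.0232), without rat 4 (adjusted p = 0.0281) and with DESeq2 (adjusted p = 0.00129). In the opposite direction, P4ha2, a prolyl 4-hydroxylase subunit, was at 490 to 612 CPM in CON and 685 to 964 CPM in LDP discs at 8 weeks (0.58 ± 0.12, adjusted p = 0.0764), and passed without rat 4 (adjusted p = 0.0201) and with DESeq2 (adjusted p = 0.00242). Lox was at 262 to 280 and 293 to 414 CPM (0.35 ± 0.11, adjusted p = 0.143), and passed with DESeq2 (adjusted p = 0.0226). At 2 weeks P4ha2 and Lox were at 0.50 ± 0.12 and 0.38 ± 0.11, and P4ha2 passed with DESeq2 (adjusted p = 0.0448).

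The 8 genes varied together only in part. Over the 16 libraries, after each group's mean was subtracted, Pearson's r was 0.84 between Col1a1 and Col12a1, 0.80 between the partner chains Col5a1 and Col5a2, and 0.73 between Col3a1 and Pcolce. The partner chains Col1a1 and Col1a2 had r = 0.59, and Col1a2 and Col5a1 had r = -0.28. Outside the 8 genes, those most like Col1a1 by this measure were Man2a1 (r = 0.94), Nr4a3, Parp9, LOC102548682 and Dpy19l1 (r = 0.88 to 0.89). No gene was among the 5 most like ones of 3 or more of the 8 genes. Points of this kind share a library and its depth, and are given as a description.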

How the data were processed

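Single-cell RNA-seq (10x Genomics 3′ kit) was performed by the authors on 16 libraries of rat discs digested with pronase and type 2 collagenase, 4 per group. The authors processed the reads in Partek Flow against rn6 and kept cells within limits on mitochondrial, gene and UMI counts. The aligner and doublet handling are not given in the sources used here, and no doublets were removed. The cells in the files matched the number the study states in 3 groups, with a small shortfall in LDP discs at 8 weeks. Each deposited value is log2(CPM + 1) of a cell. The deposited total per cell, an expected count that need not be whole, and the deposited count of expressed genes were used for depth. Multiplying CPM by the total gave whole counts for 99.4% to 99.5% of values above 0 (within 0.02). Classes are the authors' own. Region labels are deposited as numbers and were matched to NP, IAF and OAF through a number of cells that the study gives for each region, which is not reported here. Mitochondrial percent, deposited per cell, was read as a check only.

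CPM were averaged over the cells of a library and fitted as log2(mean + 1) with limma 3.58.1 (lmFit, eBayes with trend, R 4.3.3), genes with a mean of at least 1 CPM being tested and Benjamini-Hochberg adjustment being made over all of them at 0.05. All 16 libraries shared 1 fit of IVD cells, and the 8 libraries of 2 weeks 1 fit per region. LDP against CON had the rat as a block, and the 8 against 2 week comparisons had 4 group means. CON and LDP libraries were paired by the number in their titles, as the study compares both kinds of disc within each rat. Their deviations from the group means correlated at -0.147, 0.202, 0.142 and -0.185 in rats 1 to 4 and at 0.140, 0.465, 0.0408 and 0.383 in rats 5 to 8. For the CON libraries of rats 1, 4 and 7, the LDP library of another rat correlated more highly (up to 0.257, 0.216 and 0.209). The pairing thus rests on the titles. Shares were compared by two-sided exact permutation tests. The fit of IVD cells with the rat as a block was tested on simulated data with changes set at 2 weeks, and the other fits were not. Alternatives were edgeR 4.0.16 and DESeq2 1.42.0 on the recovered counts summed per library, pseudocounts of 0.1 and 10, no filter, no trend, no block, cells from 1000 UMIs, and each rat left out. The 8 genes were named as a set, up to 3 genes of smallest unadjusted p were named per pathway list and comparison, and the genes most like Col1a1 by correlation were named. These genes and lists were chosen with earlier results of these data known.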

Additional observations from a re-analysis of the deposited data

Results flagged for a closer look

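Of 48 groups of 4 values examined, 8 held a value far from the other 3, where chance gives about 2.4. The gap to the nearest value, over the whole range, was above Dixon's 95% critical value in each. Col1a1 in CON rat 4 at 2 weeks was low, at 12.68 on the log2 scale (6542 CPM against 11734 to 12155 CPM). Col5a1 in LDP rat 4 at 2 weeks was low, at 6.96 (124 CPM against 461 to 554 CPM). In CON rat 8 at 8 weeks, Col5a2 was high at 9.53 (740 CPM against 561 to 585 CPM) and Col12a1 low at 6.53 (91.7 CPM against 131 to 138 CPM).

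The remaining 4 were LDP minus CON differences of rat 5 at 8 weeks, all of them low. The difference was -2.20 for Col5a1 (-0.60 to -0.41 in rats 6 to 8), -1.90 for Col5a2 (-0.28 to -0.16), -2.79 for Col12a1 (-1.22 to -1.04) and -3.19 for Col14a1 (-1.24 to -0.91). All 4 genes share the 2 libraries of rat 5, of which the LDP library stood apart from its group over all genes as well.

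The LDP minus CON change at 2 weeks differed between regions, by limma on the difference within each rat. It did so for Col1a1 (IAF minus OAF -1.42), Col1a2 (-0.69), Col12a1 (-0.73) and Col14a1 (-0.86), and between IAF and NP cells for Col14a1 (-1.14). CON and LDP cells had been clustered apart, and IAF cells were above NP cells for Col1a1 in CON but below them in LDP discs. The part of that in these differences was not tested.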

How the results depend on the processing

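Of 866 values of the 8 genes under alternatives, 809 kept their direction and their side of the threshold, 14 newly passed, 16 no longer passed and 27 changed sign. Of 550 values of the named pathway genes, 523 kept both, 8 newly passed (Adamts2, P4ha2 and Lox between LDP and CON discs), 19 no longer passed (Col5a3 in both kinds of comparison, and Col2a1, Loxl3 and Mrc2 over time in CON discs) and 0 changed sign. The number of the 8 genes called in IVD cells at 8 weeks was 2 with DESeq2, and 0 to 3 with a rat left out (3 without rat 4). In all cells at 8 weeks DESeq2 called 2. In IAF cells it was 3 with DESeq2 and 0 to 4 with a rat left out (4 without rat 4). With a rat left out it was 3 to 5 in the CON time comparison and 6 to 7 in the LDP one. Without the replicate block 0 of the 8 genes were called in every comparison of LDP with CON, as with it. The number of the 16 share tests with p under 0.05, 2 in the text, was 1 with all UMIs, where Col12a1 and Col14a1 at 8 weeks were lost and Col3a1 at 2 weeks passed. It was 0 with sign flips as a replicate block, and 0 to 2 with a rat left out. The count was 0 without rat 5, 6, 7 or 8, where 3 against 3 cannot go below 0.1. The OAF share difference was -1.75 to 2.62 percentage points with a rat left out, above 0 only without rat 1. In the test of the effect in IAF against OAF cells, with 4 of the 8 genes called, leaving out a rat gave 1 to 3 and a pseudocount of 10 gave 3. Against NP cells, with 1 called, it was 0 with a pseudocount of 10 and 0 to 3 with a rat left out. The alternatives of the region tests and of the pathway genes were added after the data were seen.

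Values that changed sign belong to 5 genes. With a rat left out, the change in IVD cells at 2 weeks ranged from -0.69 to 0.23 for Col1a2 and from -0.52 to 0.11 for Pcolce. Col1a2 was 0.04 without rat 2. In NP cells Col1a1 ranged from -0.44 to 0.083, Col1a2 from -0.58 to 0.20, Col12a1 from -0.70 to 0.10 and Pcolce from -0.38 to 0.17. In IAF cells Col5a2 ranged from -0.62 to 0.020 and Pcolce from -0.48 to 0.10. Pcolce there was 0.17 with DESeq2, and 0.15 and 0.015 with edgeR with and without its scaling. In OAF cells the range was -0.088 to 0.072 for Col1a1, -0.32 to 0.42 for Col1a2 and -0.30 to 0.026 for Pcolce. There Col1a1 was 0.18 with DESeq2, and 0.18 and 0.082 with edgeR, and Pcolce was 0.11, 0.11 and 0.013. The cause was not tested.

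Counts over all genes moved more. The median change over all genes at 8 weeks was -0.16 by limma and -0.0040 with DESeq2's scaling. In IVD cells at 2 weeks limma called 20 genes, DESeq2 282, and limma without the replicate block 5. With a pseudocount of 10 it called 2, and with a rat left out 0 to 7. At 8 weeks limma called 30 genes, DESeq2 572, limma with a pseudocount of 0.1 80, and with a rat left out 1 to 567 (567 without rat 4). For the test of the effect at 8 against 2 weeks, with 0 genes called, DESeq2 gave 12 and a rat left out up to 13. In all cells DESeq2 called 147 and 211 genes at 2 and 8 weeks, where limma called 0 and 1. In IAF cells DESeq2 called 205 and limma without rat 4 26, against 0. In NP cells DESeq2 called 200 and in pooled NP and IAF cells 230, against 0. In OAF cells limma called 163, or 104 to 272 with a rat left out. Over time limma called 937 genes in CON and 1630 in LDP discs, DESeq2 1487 and 2479, and limma with a rat left out as few as 318 and 835. With 4 libraries a group, an exact test of shares cannot go below 0.0286.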
